A study of Homo sapiens with 21 samples.

Results

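MicroRNAs (miRNAs) of HK-2 cells were compared after 48 h with or without cyclosporine A. The 472 miRNAs described here are those with a mean of at least 10 raw counts over the 8 small RNA libraries, out of 2586 mature miRNAs in the count table, and they hold at least 99.973% of the counts of every library. HK-2 cells are an established line made from proximal tubule cells of a human kidney, so every library comes from 1 line. The vehicle group (4 libraries) received 0.1% ethanol and the cyclosporine A group (4 libraries) received the drug at 5 µg/mL, both for 48 h. Cells of both groups grew in the same serum-free keratinocyte medium with epidermal growth factor and an extract of bovine pituitary gland. The series as a whole asks which miRNAs and mRNAs belong to the kidney toxicity of calcineurin inhibitors, and 4 mRNA libraries per treatment accompany the small RNA libraries; its Argonaute crosslinking libraries were not used here. The labels number the libraries within a group without saying whether each came from its own culture, so the p-values measure the spread between libraries, which may be partly technical.

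A miRNA is cut from a hairpin in a longer transcript, and either arm of the hairpin (5p or 3p) can enter an Argonaute protein and guide it to mRNAs. Pairing rests mainly on the seed, bases 2 to 8 of the mature miRNA, so miRNAs with the same seed are grouped as a family and can share targets. Many hairpins lie close together and are cut from 1 transcript, which makes a genomic cluster, and many others lie inside a host gene. Cyclosporine A binds cyclophilins, and that complex inhibits the phosphatase calcineurin.

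The mature sequences below are from RefSeq (GRCh38.p14), written 5′ to 3′ with the seed in capitals. They are shown because the results turn on pairs or trios that share a seed and did or did not move together (miR-29, miR-23, miR-27, miR-221 with miR-222, miR-132 with miR-212, miR-19), on 1 hairpin whose arms moved by different amounts (miR-222), and on 5 single miRNAs with clear changes. Of the 472 miRNAs, 417 had a sequence in the reference table.
hsa-miR-29a-3p: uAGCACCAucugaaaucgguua
hsa-miR-29b-3p: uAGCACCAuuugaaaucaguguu
hsa-miR-29c-3p: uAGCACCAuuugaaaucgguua
hsa-miR-23a-3p: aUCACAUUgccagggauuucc
hsa-miR-23b-3p: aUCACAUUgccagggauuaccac
hsa-miR-27a-3p: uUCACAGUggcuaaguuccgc
hsa-miR-27b-3p: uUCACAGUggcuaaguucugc
hsa-miR-221-3p: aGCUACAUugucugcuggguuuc
hsa-miR-222-3p: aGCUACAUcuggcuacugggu
hsa-miR-222-5p: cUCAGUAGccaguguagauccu
hsa-miR-132-3p: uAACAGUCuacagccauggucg
hsa-miR-212-3p: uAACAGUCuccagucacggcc
hsa-miR-19a-3p: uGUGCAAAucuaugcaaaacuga
hsa-miR-19b-3p: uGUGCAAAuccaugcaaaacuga
hsa-miR-148a-3p: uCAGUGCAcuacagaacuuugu
hsa-miR-155-5p: uUAAUGCUaaucgugauagggguu
hsa-miR-7-5p: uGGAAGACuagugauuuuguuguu
hsa-miR-10a-5p: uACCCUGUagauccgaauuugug
hsa-miR-7974: aGGCUGUGaugcucuccugagccc

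Some of these sequences are nearly the same. By edit distance, miR-27a-3p and miR-27b-3p differ by 1 base, as do miR-19a-3p and miR-19b-3p, and miR-29a-3p and miR-29c-3p, while miR-23a-3p and miR-23b-3p differ by 3 and miR-221-3p and miR-222-3p by 6. The split of reads within the closest pairs is uncertain, because the sources used here do not say how reads that match more than 1 miRNA were assigned.

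The small RNA libraries held 6664231 to 7888220 counts with vehicle and 7045150 to 9184278 with cyclosporine A. One miRNA, miR-21-5p, took 54.7% to 60.7% of the counts of a vehicle library and 55.7% to 62.6% of a cyclosporine A library. Its mean share was 58.6% ± 2.72 with vehicle and 59.3% ± 3.19 with cyclosporine A (SD, n = 4 each), a difference of 0.717 percentage points within the spread between libraries (exact two-sided permutation test, p = 0.743). TMM scaling factors ran from 0.938 to 1.06 with vehicle and from 0.886 to 1.16 with cyclosporine A. Levels below are CPM (counts scaled to a fixed library total) after TMM scaling, and fold changes are log2, cyclosporine A over vehicle. Such levels are relative to the other miRNA reads of a library, and after TMM scaling they are not its exact shares. In bulk RNA, fewer cells with a miRNA and less of it per cell cannot be told apart. The first principal component of the log levels, with 36.9% of the variance, placed all 4 vehicle libraries on one side of 0 and all 4 cyclosporine A libraries on the other.

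Of the 472 miRNAs, 53 (11.2%) were called with edgeR's quasi-likelihood test at a Benjamini-Hochberg adjusted p under 0.05, which is what "called", "rose" and "fell" mean below. The 24 that rose (5.08%) had a median change of 0.57 and the 29 that fell (6.14%) a median of -0.73, against a median of 0.02 over all 472. Changes were small for most miRNAs: 4 rises and 8 falls reached 1 on the log2 scale. In 49 of the 53 the 4 libraries of one group lay entirely above the 4 of the other, as they did in 79 of all 472. The count depended on single libraries. It was 28 (13 higher, 15 lower) without vehicle replicate 3, rises numbered 13 without cyclosporine A replicate 4, and 24 of the 53 calls (9 higher, 15 lower) were made in each of the 8 fits that left out 1 library.

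**Figure D1:**
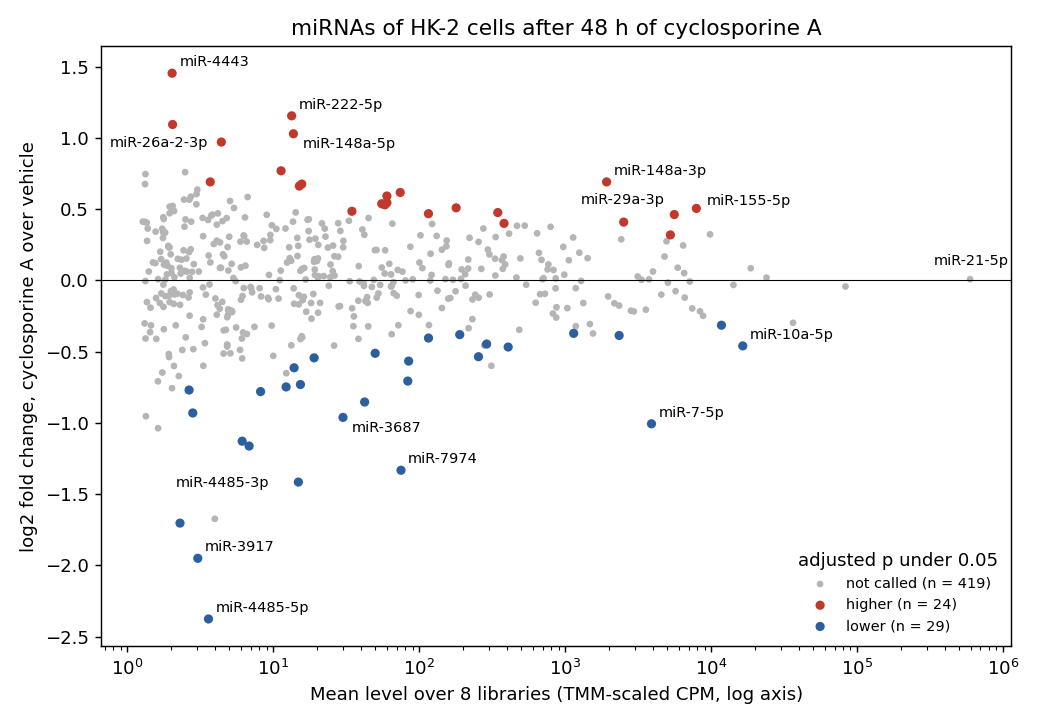
Each point is 1 of the 472 miRNAs; the horizontal axis is its mean level over 8 libraries in TMM-scaled CPM on a log axis and the vertical axis its log2 fold change, cyclosporine A over vehicle. Red marks the 24 miRNAs called higher and blue the 29 called lower; miR-21-5p, at the far right, lies near 0, and miR-7-5p is the lowest point above 1000 CPM.

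Among abundant miRNAs, miR-7-5p changed most. It stood at 4862, 5338, 5627 and 4989.7 CPM in vehicle replicates 1 to 4 and at 2346, 2452, 2574 and 2996 CPM in cyclosporine A replicates 1 to 4. Every treated library lay far below every vehicle library, the change being -1.01 ± 0.11 (SE; edgeR adjusted p = 5.82e-06; at most 0.00013 with any 1 library left out). miR-7-5p is known to target growth factor receptor signalling and is abundant in endocrine tissue. Because the medium holds pituitary extract, 8 miRNAs of pituitary and endocrine tissue were looked at together: 7 were tested, 1 fell (miR-7-5p) and none rose, near the 11.2% called over all miRNAs, their median change was 0.27 against 0.02 over all, and miR-7-2-3p had no count in any library. Their summed level was 9548 to 10596 CPM with vehicle and 7091 to 8014 CPM with the drug, mostly miR-7-5p and members of the miR-200 family, and the part of the extract in the result was not tested.

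The miR-10 family fell as well. miR-10a-5p, which is encoded in the HOXB gene cluster and is abundant in kidney epithelium, was the sixth most abundant miRNA, at 19869.6, 17827, 19434 and 19070.5 CPM with vehicle against 12636, 12359, 14938 and 15489 CPM with the drug. No treated library reached the vehicle range, and the change was -0.46 ± 0.10 (edgeR adjusted p = 0.00622, called with each library left out). miR-10b-5p fell from 1288 ± 44.9 to 996 ± 96.0 CPM (SD, n = 4 each; -0.37 ± 0.11, adjusted p = 0.0301), a call that was not made without vehicle replicates 1, 3 or 4 or cyclosporine A replicates 1 or 2 (adjusted p up to 0.112). The other arm of the hairpin, miR-10a-3p, had a change of -0.12 ± 0.12 (adjusted p = 0.571). Of 14 miRNAs listed as enriched in kidney tubules, 12 were tested, 3 fell (both miR-10 miRNAs and miR-30d-5p) and none rose, against 6.14% lower over all 472, with a median of -0.18. Without vehicle replicate 3, miR-10a-5p alone of the 3 was called. miR-30d-5p changed least of the 3, by -0.31 ± 0.10 (adjusted p = 0.0461), and was called in 2 of the 8 fits that left out a library, those without cyclosporine A replicates 3 or 4 (adjusted p up to 0.141 in the others).

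The steepest falls were in miRNAs that are rare here or that lie in other structural RNAs. Both arms of miR-4485, whose sequence is shared with mitochondrial ribosomal RNA, fell: the 3p arm was at 25.7, 17.2, 24.2 and 19.3 CPM with vehicle and at 8.06, 7.02, 10.4 and 6.72 CPM with the drug, and the 5p arm went from 6.05 ± 1.88 to 1.13 ± 0.231 CPM (SD, n = 4 each). Their changes were -1.42 ± 0.18 (edgeR adjusted p = 4.01e-05) and -2.38 ± 0.29 (adjusted p = 2.44e-05). miR-3687, which lies in the transcribed spacer of the ribosomal RNA precursor, fell from 39.6 ± 5.58 to 20.4 ± 2.19 CPM (-0.96 ± 0.14, adjusted p = 0.000226). miR-4461 (-1.70 ± 0.25) and miR-1248 (-0.85 ± 0.22), the latter in a small nucleolar RNA, fell too. Of the 20 miRNAs listed as overlapping another RNA class, 13 were tested, 5 fell and none rose, against 6.14% lower over all 472, and the median was -0.54. Whether these reads are processed miRNAs or fragments of the other RNA cannot be told apart from counts by name. The miR-1248 call was lost without vehicle replicate 3 (adjusted p = 0.0602), and 1 vehicle library (29.2 CPM) lay among the treated ones.

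miR-7974, a little-studied miRNA annotated within ZNF653, fell from 112, 102, 118 and 97.2 CPM to 34.6, 38.9, 48.4 and 48.6 CPM (-1.33 ± 0.14, edgeR adjusted p = 5.82e-06). The treated range ended well below the vehicle range. Other falls of more than 1 were in rarer miRNAs: miR-3917 (-1.95 ± 0.31), miR-5091 (-1.16 ± 0.28) and miR-573 (-1.13 ± 0.21). miR-5091 was at 16.3 CPM in vehicle replicate 1 and at 5.44 to 8.48 CPM in the other vehicle libraries, and its change was -0.75 without that replicate (edgeR adjusted p = 0.0435). miR-4521, at 68.8 CPM in vehicle replicate 1 and 114 to 116 CPM in the other vehicle libraries, fell by 0.71 on the log2 scale (adjusted p = 0.00686).

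The rises were led by a passenger strand. miR-222-5p, the rarer arm of the miR-222 hairpin, was at 8.62, 6.22, 9.01 and 9.07 CPM with vehicle and at 14.4, 15.8, 21.3 and 22.3 CPM with the drug. Every treated library exceeded every vehicle library (1.16 ± 0.18, edgeR adjusted p = 0.000398). miR-4443 rose more (1.46 ± 0.29) but from 1.09 ± 0.287 to 2.96 ± 0.804 CPM, a mean of 16 counts per library. Both arms of miR-148a, a hairpin whose 3p miRNA is known to target DNA methyltransferase and metabolic mRNAs, rose: miR-148a-3p was at 1328, 1531, 1489.7 and 1521 CPM with vehicle and 1775, 2028, 2592 and 3092 CPM with the drug (0.69 ± 0.14, adjusted p = 0.00454). Its treated libraries were spread more widely than its vehicle libraries.

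miR-155-5p, an miRNA of inflammatory activation processed from MIR155HG, was the most abundant of the 5 rises at a mean of 1000 CPM or more. It was at 5834, 7091, 6851 and 6377 CPM with vehicle and at 10054, 9215, 8522 and 9352 CPM with the drug, with no overlap (0.51 ± 0.10, edgeR adjusted p = 0.00336). Both arms of miR-22 rose. miR-22-5p rose by 0.59 ± 0.12 (edgeR adjusted p = 0.00436) and was called with each library left out. miR-22-3p rose by 0.32 ± 0.10 (edgeR adjusted p = 0.0464). Of the 8 fits that left out a library, 1 called miR-22-3p, that without vehicle replicate 2 (adjusted p up to 0.157 in the others). Of 9 fits with other scalings, filters or tools, 2 called it (edgeR adjusted p = 0.158 with no filter). miR-139-5p, encoded in PDE2A, rose from 48.7 ± 4.30 to 71.2 ± 9.51 CPM (SD, n = 4 each; 0.55 ± 0.13, adjusted p = 0.0134, and 0.0595 without cyclosporine A replicate 4). miR-193a-3p rose by 0.77 ± 0.18 (adjusted p = 0.00874).

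**Figure D2:**
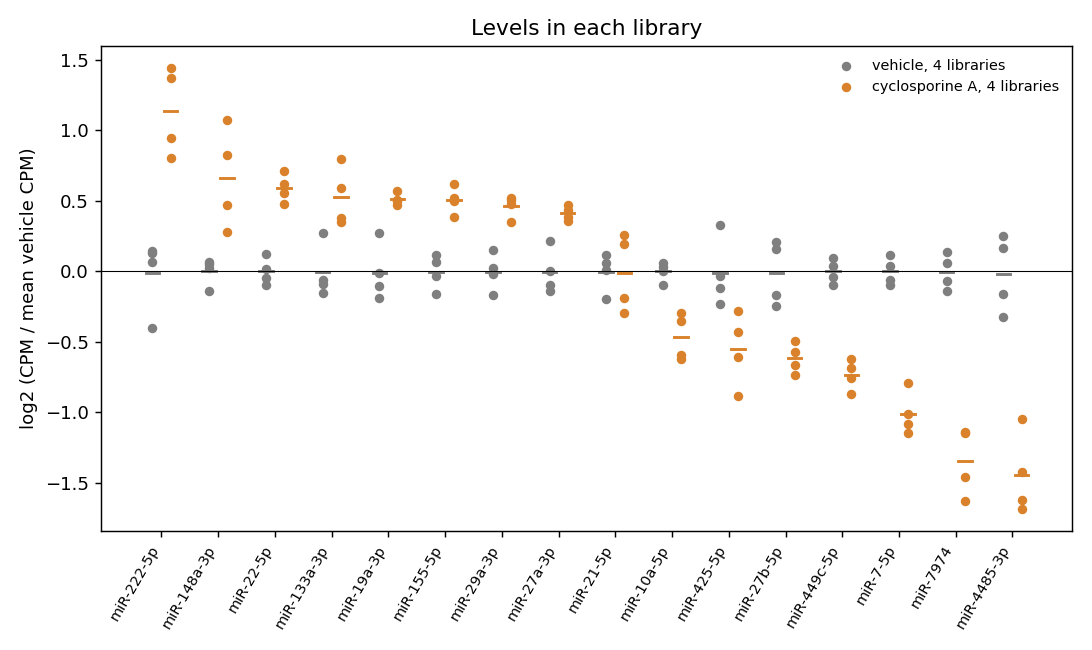
Level of 16 miRNAs in each of the 8 libraries, as log2 of CPM over the mean vehicle CPM; grey points are the 4 vehicle and orange points the 4 cyclosporine A libraries, and short lines are group means of the log values. The groups do not overlap for the 15 miRNAs that were called and overlap for miR-21-5p, whose change was 0.01 ± 0.12 on the log2 scale.

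Genomic clusters were read as sums over the miRNAs that map to 1 cluster alone, with hairpins joined when 10 kb or less apart on the same strand. Of 267 clusters and single genes, 39 (14.6%) were called. Among the 38 clusters in which at least 2 hairpins give a miRNA of the set, 5 rose and 5 fell. None of the 38 held both a miRNA that rose and one that fell, but most miRNAs were not called. Called or not, all members had changes of 1 sign in 10 of the 38.

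The cluster of MIR29A and MIR29B1 rose. Its main product, miR-29a-3p (chr7:130876748-130876769, minus strand, GRCh38.p14), is known to repress collagen and other matrix mRNAs. miR-29a-3p was at 4632, 4772, 4172 and 5209.9 CPM with vehicle and at 6652, 6531, 6716 and 5992 CPM with the drug, without overlap (0.46 ± 0.10, edgeR adjusted p = 0.00622). miR-29b-3p (chr7:130877467-130877489, with a copy on chromosome 1) rose by 0.47 ± 0.13 (adjusted p = 0.0252), a call not made without vehicle replicates 1 or 3 or cyclosporine A replicates 1, 3 or 4 (adjusted p up to 0.116). The cluster sum rose by 0.46 ± 0.09 (edgeR adjusted p = 0.00378) and was called with each library left out. That sum leaves out miR-29b-3p and adds little to the call of miR-29a-3p, of which it nearly all consists. Mean levels were 5585 CPM for miR-29a-3p and 4.10 CPM each for miR-29a-5p and miR-29b-1-5p. The sum of the second miR-29 cluster, MIR29C with MIR29B2, had a change of 0.21 ± 0.14 (edgeR adjusted p = 0.339). This second sum also leaves out miR-29b-3p and holds rarer miRNAs, such as miR-29c-3p at a mean of 13.6 CPM.

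The neighbouring hairpins MIR23A, MIR27A and MIR24-2 on chromosome 19 rose as a sum. Their sum was at 2322, 2596, 2385 and 2905 CPM with vehicle and 3306, 3411, 3476 and 3466 CPM with the drug (0.42 ± 0.09, edgeR adjusted p = 0.00574, called with each library left out). Of the 5 miRNAs, miR-27a-3p (0.41 ± 0.11), miR-27a-5p (0.62 ± 0.18) and miR-23a-3p (0.48 ± 0.15) rose, and miR-24-2-5p (0.21 ± 0.12) and miR-24-3p (0.01 ± 0.10), which also comes from the second cluster and is not in the sum, were not called. These 3 calls were less stable than the sum: miR-27a-3p was not called without vehicle replicates 1 or 3 or cyclosporine A replicate 4 (adjusted p up to 0.0742), miR-27a-5p was called only in the fits without cyclosporine A replicates 1 or 2 (up to 0.184 in the others), and miR-23a-3p only in those without vehicle replicate 2 or cyclosporine A replicate 3 (up to 0.128). In miR-27a-5p and miR-23a-3p the ranges of the 2 groups overlapped.

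The paralogous cluster on chromosome 9, MIR23B with MIR27B and MIR24-1, was not called: its sum was 4939 ± 545 CPM with vehicle and 4632 ± 478 CPM with the drug (SD, n = 4 each; -0.09 ± 0.10, edgeR adjusted p = 0.607). Within it the 2 rarer 5p arms fell, miR-27b-5p by 0.61 (adjusted p = 0.0154, and 0.0700 without vehicle replicate 3) and miR-23b-5p by 0.77 on the log2 scale (adjusted p = 0.0364; called only in the fit without vehicle replicate 2, with adjusted p up to 0.112 in the others). The 2 clusters were compared within libraries, as the log2 ratio of the chromosome 19 sum to the chromosome 9 sum, a comparison chosen after the values were seen. The ratio was -0.89, -1.12, -1.02 and -0.78 with vehicle and -0.29, -0.54, -0.36 and -0.55 with cyclosporine A. All treated ratios lay above all vehicle ratios, a difference of 0.52. No test is given for it, because the pair was chosen for members already seen to move apart. The mean log2 ratio of miR-27a-3p to miR-27b-3p was higher by 0.52 with cyclosporine A, that of miR-23a-3p to miR-23b-3p by 0.38 and that of miR-27a-5p to miR-27b-5p was higher by 1.18, likewise as descriptions. The miR-27 seed family as a whole was at 6864 ± 651 CPM with vehicle and 7262 ± 480.1 CPM with the drug (SD, n = 4 each; 0.08 ± 0.10, edgeR adjusted p = 0.656).

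MIR132 and MIR212, adjacent on chromosome 17 and known as targets of the transcription factor CREB, rose as a cluster from 81.8 ± 8.30 to 116 ± 10.5 CPM (SD, n = 4 each; 0.50 ± 0.12, edgeR adjusted p = 0.00639, called with each library left out). All 4 miRNAs of the cluster had positive changes and 2 were called: miR-212-5p by 0.66 ± 0.16 (adjusted p = 0.0130, and 0.0595 without cyclosporine A replicate 4) and miR-132-3p by 0.53 ± 0.15 (adjusted p = 0.0287; called only in the fits without vehicle replicate 2 or cyclosporine A replicate 3, with adjusted p up to 0.0931 in the others). In miR-132-3p 1 treated library (53.3 CPM) lay within the vehicle range of 40.5 to 55.5 CPM.

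MIR221 and MIR222, which are neighbours on the X chromosome and are linked to proliferation, had a sum of 14994, 15696, 15109 and 13932 CPM with vehicle and 18840.2, 17310.4, 19520.4 and 17666 CPM with the drug. The groups did not overlap, and the rise was 0.30 ± 0.09 (edgeR adjusted p = 0.0310). This cluster and that of MIR98 with MIRLET7F2 (0.38 ± 0.11, adjusted p = 0.0334) were picked after their values were seen. The first was called only without vehicle replicate 2 or cyclosporine A replicate 2 (adjusted p up to 0.120 in the other fits) and the second only without vehicle replicate 4 or cyclosporine A replicate 2 (up to 0.136). The main arms alone, miR-222-3p (0.32 ± 0.11, adjusted p = 0.0716) and miR-221-3p (0.25 ± 0.11, adjusted p = 0.181), were not called.

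The other 5 called clusters fell. MIR425 with MIR191, in DALRD3, fell by 0.40 ± 0.11 (edgeR adjusted p = 0.0208, not called without vehicle replicate 2 or cyclosporine A replicate 3, with adjusted p up to 0.0667): miR-425-3p went from 58.6 ± 5.31 to 41.1 ± 2.99 CPM and miR-425-5p from 301 ± 52.8 to 208 ± 36.3 CPM (SD, n = 4 each), and all 4 miRNAs of the cluster had negative changes. The call of miR-425-5p was lost without vehicle replicates 2 or 3 or cyclosporine A replicate 3 (edgeR adjusted p up to 0.086). That of miR-425-3p was lost without vehicle replicate 3 (edgeR adjusted p = 0.0516), and neither was called with library totals only. MIR449A with MIR449B and MIR449C, in CDC20B and known for multiciliated cells, fell by 0.58 ± 0.13 (adjusted p = 0.00530, called with each library left out). That fall was in miR-449c-5p, at 17.9, 19.6, 20.4 and 18.6 CPM with vehicle and 12.4, 10.5, 11.3 and 11.9 CPM with the drug, while miR-449a had -0.21 ± 0.20 (adjusted p = 0.560). MIR181A2 with MIR181B2 fell by 0.47 ± 0.12 (adjusted p = 0.0122), and its sum holds only the 3p arms, since miR-181a-5p and miR-181b-5p also come from a second cluster. MIR301B with MIR130B (-0.39 ± 0.11) and MIR30B with MIR30D (-0.32 ± 0.09) both had an adjusted p of 0.0274. The first was not called without vehicle replicates 1 or 3 or cyclosporine A replicates 2 or 4 (adjusted p up to 0.0794), nor the second without vehicle replicates 2 or 3 or cyclosporine A replicates 1 or 2 (up to 0.103).

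**Figure D3:**
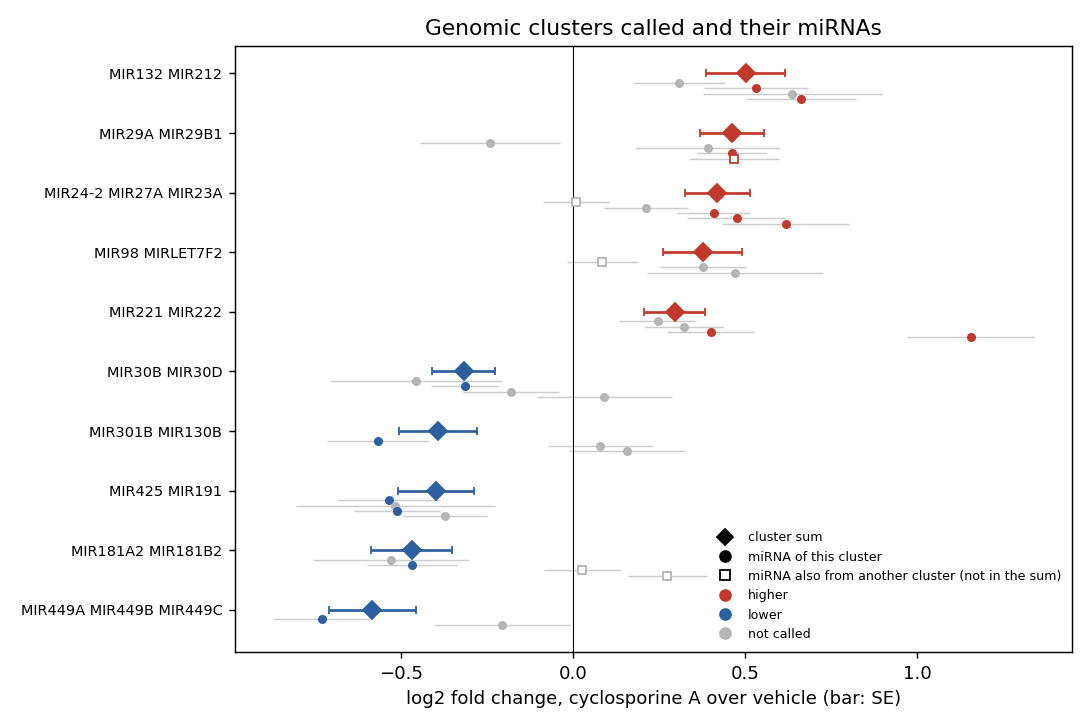
The 10 called genomic clusters with at least 2 hairpins: diamonds are the cluster sums and small symbols their miRNAs, placed by log2 fold change (cyclosporine A over vehicle) with bars of 1 SE; open squares are miRNAs that also come from another cluster and are not in the sum. In 5 clusters the sum lies above 0 and in 5 below, and miR-222-5p (1.16) stands apart from the other members of its cluster.

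Seeds were read as sums over all miRNAs with the same bases 2 to 8, for the miRNAs with a RefSeq sequence. Of 340 seed sums, 43 (12.6%) were called. Of the 46 seeds that at least 2 miRNAs of the set share, 5 rose and 1 fell, and none of the 46 held both a miRNA that rose and one that fell. All members, called or not, had changes of 1 sign in 26 of the 46. The miR-29 seed rose with all 3 of its miRNAs positive (0.46 ± 0.10, edgeR adjusted p = 0.00388, called with each library left out), miR-29c-3p alone having 0.41 ± 0.17 (adjusted p = 0.134). The miR-19 seed was at 339, 407, 363 and 442 CPM with vehicle and 538, 575, 482 and 483 CPM with the drug (0.42 ± 0.12, adjusted p = 0.0190, not called without vehicle replicates 1 or 3, with adjusted p up to 0.0811). The groups did not overlap. Of its members, miR-19a-3p was called and miR-19b-3p was not (0.365 ± 0.131, edgeR adjusted p = 0.0781).

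The other 4 called families each held 1 called member or none. The miR-133 seed, of muscle miRNAs, rose by 0.54 ± 0.14 (edgeR adjusted p = 0.0143, and 0.0536 without vehicle replicate 3), and nearly all of its reads were miR-133a-3p, at 45.1 ± 6.32 and 65.4 ± 9.71 CPM (SD, n = 4 each). The seed of miR-132-3p and miR-212-3p rose by 0.54 ± 0.15 (adjusted p = 0.0193; not called without vehicle replicates 1 or 4 or cyclosporine A replicates 1 or 2, with adjusted p up to 0.0760). The seed of miR-221-3p and miR-222-3p rose by 0.29 ± 0.09 (adjusted p = 0.0309; called only without vehicle replicate 2 or cyclosporine A replicate 2, with adjusted p up to 0.139 in the other fits), although neither miRNA was called alone. The miR-146 seed, of miRNAs that restrain NF-kB signalling, fell by 0.35 ± 0.11 (adjusted p = 0.0347), also with neither member called. miR-146a-5p was at 641 CPM in vehicle replicate 1 and at 261 to 308 CPM in the other vehicle libraries, and the seed sum's call was lost without that library, vehicle replicate 3 or cyclosporine A replicates 1, 2 or 3 (adjusted p up to 0.146).

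Both arms could be compared for 128 hairpins. The 2 arms changed in the same direction in 77 of 128 pairs and in 64 of the 103 pairs in which each arm comes from 1 gene. Both arms were called in 7 pairs, in the same direction in all 7, and in 22 pairs 1 arm alone was called. Across the 103 single-gene pairs the arms' log2 fold changes had a Pearson r of 0.51, as a description across hairpins measured in the same libraries.

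The log2 ratio of 5p to 3p counts (0.5 added to each) was tested with limma, and 6 of 128 ratios (4.69%) were called. For miR-7-5p over miR-7-1-3p the ratio was 10.37, 9.83, 10.04 and 9.50 with vehicle and 8.84, 8.24, 8.81 and 8.66 with cyclosporine A, a change of -1.30 ± 0.21 (limma adjusted p = 0.00559). It was called with each library left out. Thus miR-7-5p fell while miR-7-1-3p, at 5.37 ± 1.35 and 6.53 ± 1.40 CPM (SD, n = 4 each), changed by 0.27 ± 0.22 (edgeR adjusted p = 0.476). In the RefSeq table miR-7-5p comes from more than 1 gene (chr9:83969811-83969834, minus strand, in HNRNPK, and chr19:4770700-4770723, plus strand, in MIR7-3HG), and the 3p miRNA from the chromosome 9 gene.

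miR-26a gave the converse. miR-26a-5p, the fourth most abundant miRNA, was at 23755 ± 953 CPM with vehicle and 24091 ± 1916 CPM with the drug (SD, n = 4 each), a change of 0.02 ± 0.09, while miR-26a-2-3p rose from 2.57, 2.83, 2.25 and 4.19 CPM to 5.06, 6.13, 6.39 and 5.78 CPM (0.97 ± 0.22, edgeR adjusted p = 0.00766). The arm ratio changed by -0.98 ± 0.18 (limma adjusted p = 0.0103, and 0.0536 without vehicle replicate 3). miR-181a-5p over miR-181a-2-3p rose by 0.74 ± 0.19 (adjusted p = 0.0445), the 3p arm falling from 471 ± 59.9 to 341 ± 46.6 CPM. That fall was not called without vehicle replicates 1 or 3 or cyclosporine A replicates 1 or 2 (edgeR adjusted p up to 0.0869), nor with library totals only (0.0602). In these 3 pairs the 5p arm also comes from another gene.

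The other 3 called ratios belong to single genes. For miR-222, the ratio rose by 0.84 ± 0.19 (limma adjusted p = 0.0319). miR-29a moved the other way, by -0.70 ± 0.18 (adjusted p = 0.0439), as miR-29a-3p rose and miR-29a-5p, at 4.42 ± 0.352 and 3.78 ± 0.627 CPM (SD, n = 4 each), was not called. The ratio for miR-331 went from -1.98, -1.95, -1.92 and -1.87 to -1.31, -1.24, -1.24 and -1.30 (0.66 ± 0.16, adjusted p = 0.0422), with neither arm called alone. Only the fits without vehicle replicate 4 or cyclosporine A replicate 4 called miR-181a (adjusted p up to 0.170 in the others) and miR-29a (up to 0.135), only those without vehicle replicate 4 or cyclosporine A replicate 1 called miR-222 (up to 0.105), and only that without vehicle replicate 4 called miR-331 (up to 0.135). The number of called ratios was 1 without vehicle replicate 3, 2 when vehicle replicate 1 or cyclosporine A replicate 2 or 3 was left out, and 3 when vehicle replicate 2 or cyclosporine A replicate 1 was.

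**Figure D4:**
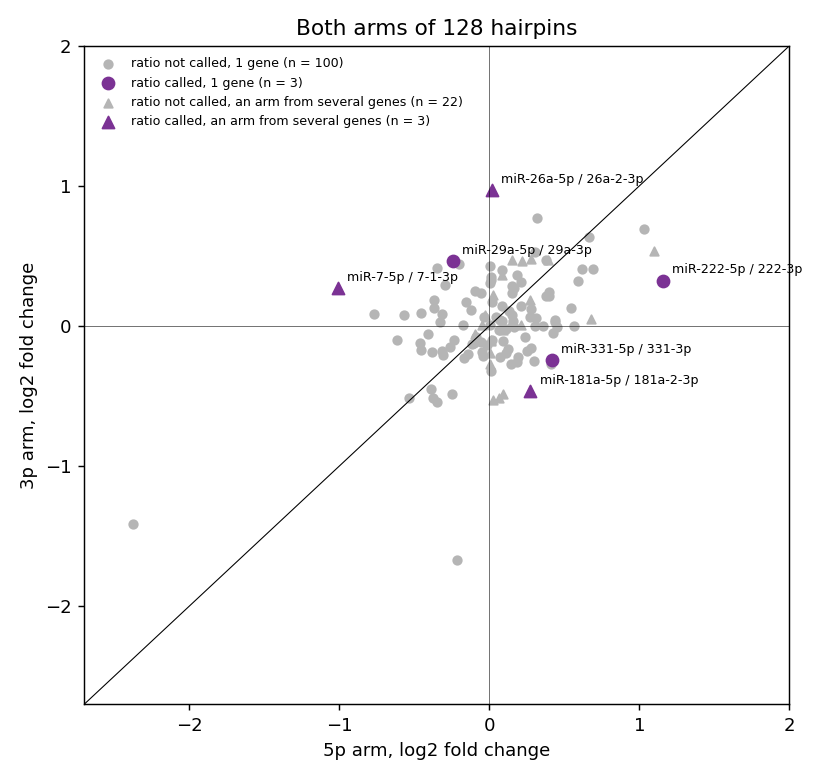
Log2 fold change (cyclosporine A over vehicle) of the 5p arm on the horizontal and of the 3p arm on the vertical axis, for 128 hairpins; circles are pairs in which both arms come from 1 gene, triangles pairs in which an arm comes from several, and the diagonal marks equal change. Purple marks the 6 pairs whose arm ratio was called, among them miR-7 (5p -1.01, 3p 0.27) and miR-222 (5p 1.16, 3p 0.32).

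For 228 miRNAs with 1 gene lying in 1 host gene on the same strand, the host's mRNA was measured in the parallel poly(A) libraries. Of 12852 mRNAs tested with edgeR, 8598 (66.9%) were called, 4285 higher (33.3%) and 4313 lower (33.6%), so a called host is common. Of the 12 miRNAs that fell, 9 lay in a host mRNA that fell, 1 in one that rose and 2 in one not called; these 9 lie in 6 hosts. Of the 8 that rose, 3 had a host that rose, 4 a host that fell and 1 a host not called. For the 208 miRNAs not called, 83 hosts rose, 75 fell and 50 were not called. Across the 228, which share 136 hosts, miRNA and host changes had a Pearson r of 0.28, as a description.

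C9orf3, the host of the MIR23B cluster, fell from 13.5, 15.6, 15.6 and 13.5 CPM to 7.39, 7.55, 6.66 and 7.40 CPM (-0.999 ± 0.15; edgeR adjusted p = 8.17e-08). Its rare 5p arms fell beside it, while the main arms miR-27b-3p (-0.10 ± 0.11) and miR-23b-3p (0.08 ± 0.14) were not called. LINC00085, which holds MIR99B, MIRLET7E and MIR125A, fell from 31.4, 33.2, 34.2 and 27.7 CPM to 7.59, 9.02, 6.89 and 9.18 CPM (-1.96 ± 0.13, adjusted p = 3.53e-20). Beside that fall, miR-99b-3p changed by -0.45 ± 0.12 and miR-99b-5p by -0.39 ± 0.12, both called, and let-7e-5p by 0.16 ± 0.11 and miR-125a-5p by -0.16 ± 0.13, neither called. miR-99b-3p was not called without vehicle replicate 3 (adjusted p = 0.0742), and miR-99b-5p was not called without vehicle replicates 1 or 3 or cyclosporine A replicates 1, 3 or 4 (up to 0.136). DALRD3, the host of MIR425 and MIR191, fell by 0.41 ± 0.07 (adjusted p = 3.28e-07).

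Hosts of rising miRNAs were mixed. PDE2A, which encodes a phosphodiesterase of cyclic nucleotides and holds MIR139, rose from 5.30 ± 1.64 to 12.5 ± 1.38 CPM (SD, n = 4 each; 1.21 ± 0.18, edgeR adjusted p = 2.93e-08). MIR155HG rose by 0.42 ± 0.17 (adjusted p = 0.0242, not called without vehicle replicate 1 or cyclosporine A replicate 3, with adjusted p up to 0.119, nor by DESeq2, with 0.0753) and C20orf166, which holds a MIR133A gene, by 0.64 ± 0.20 (adjusted p = 0.00432). In contrast, MIR17HG fell from 6.65, 6.06, 8.24 and 6.08 CPM to 2.46, 4.39, 4.59 and 3.32 CPM (-0.88 ± 0.22, adjusted p = 0.00042), with no overlap. Of its 10 miRNAs, the proliferation-linked miR-17 to miR-92a cluster, miR-19a-3p (0.51 ± 0.13) and miR-92a-1-5p (0.68 ± 0.17) rose, none fell, and the cluster sum had a change of 0.01 ± 0.10. That sum leaves out miR-19b-3p (0.365 ± 0.131) and miR-92a-3p (0.052), which also come from a second cluster and were not called. miR-19a-3p was not called without vehicle replicate 3 (adjusted p = 0.0585), nor miR-92a-1-5p without cyclosporine A replicate 3 (0.0605). MIR22HG fell by 0.43 ± 0.13 (edgeR adjusted p = 0.00351) while both arms of miR-22 rose, though few other fits called miR-22-3p. HNRNPK, around 1 of the miR-7-5p genes, rose by 0.22 ± 0.06 (adjusted p = 0.000793). How spliced host mRNA relates to hairpin output was not measured, and the difference between miRNA and host was not tested.

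The remaining miRNAs were read by lists of known roles, against 11.2% called and a median of 0.02 over all 472. Of 11 tested fibrosis-linked miRNAs 4 rose (miR-29a-3p, miR-29b-3p, miR-132-3p and miR-133a-3p) and none fell, with a median of 0.13. Without vehicle replicate 3, miR-29a-3p alone of the 4 was called. These 4 do not act alike: the miR-29 miRNAs and miR-133a are known to repress matrix genes, whereas miR-132 has been linked to fibroblast growth. Of 11 inflammation-linked miRNAs 2 rose (miR-155-5p and miR-132-3p) and none fell (median 0.24), the second not called in 6 of the 8 fits that left out a library. No member was called among 8 gatekeepers of epithelial-mesenchymal transition (median -0.14, 1 at an unadjusted p under 0.05; miR-200b-3p had -0.20 ± 0.11), 8 p53-linked (median -0.08, 1 unadjusted), 2 hypoxia-linked (median 0.20, 1 unadjusted; miR-210-3p had 0.24 ± 0.11), 9 let-7 family (median 0.09, 3 unadjusted) and 5 unfolded-protein-response miRNAs (median 0.07, 0 unadjusted). DESeq2 called 1 of these, among the p53-linked miRNAs, and limma voom 0. The abundant let-7i-5p had -0.30 ± 0.10 (edgeR adjusted p = 0.0711). The summed level of the gatekeepers was 22008 to 23119 CPM with vehicle and 19835 to 20881 CPM with the drug. That of the hypoxia-linked miRNAs was 858 to 962 CPM with vehicle and 963 to 1171 CPM with the drug. Sums of the p53-linked, let-7 and unfolded-protein-response lists overlapped between groups, and no list sum was tested.

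Marker miRNAs of other tissues were checked the same way. Liver and pluripotency markers were at the limit of counting, with 0 of 3 and 0 of 7 reaching a mean of 10 counts. Of 7 blood cell markers 2 were tested and neither was called, miR-142-3p at 117 ± 18.4 and 146 ± 6.78 CPM (SD, n = 4 each), while miR-223-3p, miR-150-5p and miR-144-3p had at most 1 count in any library. Neither endothelial marker was called, though miR-126-3p was at 1005 ± 48.8 CPM with vehicle. Neither of the 2 stromal markers tested was called (median -0.14), and miR-214-3p had no count. The summed level of the stromal list was 44.9 to 47.9 CPM with vehicle and 30.1 to 43.4 CPM with the drug, and was not tested. Of 4 muscle markers tested 1 rose, miR-133a-3p (median 0.46; miR-1-3p had 0.38 ± 0.14, adjusted p = 0.0925). The call for miR-133a-3p was lost without vehicle replicates 1 or 3 or cyclosporine A replicates 1 or 2 (adjusted p up to 0.0687). The summed level of the muscle markers was 372 to 581 CPM with vehicle and 525 to 673 CPM with the drug. Within this list miR-208a-3p had no count, while miR-1-3p had a mean of 2891.5 raw counts with vehicle and 4173.75 with the drug. None of 5 neuron markers tested was called (median -0.06), and miR-124-3p had no count. Of the marker lists with no edgeR call, 1 blood and 1 stromal miRNA had an unadjusted p under 0.05, DESeq2 called 1 stromal miRNA, and limma voom called 0. Whether such cells or RNA have a part in any change was not tested.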

How the data were processed

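The authors deposited raw counts of reads, 1 table per mature miRNA and 1 per gene symbol. The submitters' processing notes name the build hg19 and the tools HTSeq, Bowtie, DESeq2, TopHat, cutadapt and CASAVA 1.8.2. What each tool did, its settings, and how strand and multiple matches were handled is not given in the sources used here, for either table. The authors' deposited table of their own comparison (log2 fold changes and adjusted p-values) was used only to count shared calls.

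The rule and the miRNA lists were chosen with earlier results of these data known, so no list is independent evidence. miRNAs with a mean of at least 10 counts were fitted with edgeR 4.0.16 in R 4.3.3 (TMM, quasi-likelihood, treatment as the only term; SE from the F statistic); seed and cluster sums used the same factors, and arm ratios limma 3.58.1 with a trended variance. mRNA counts were fitted the same way after filterByExpr, leaving out 2 symbols listed more than once. p-values were Benjamini-Hochberg adjusted over each table. Names and loci came from RefSeq tables (459 of 472 miRNAs matched a gene); hosts were taken from gene spans, so exons and introns were not told apart. Named were the 12 largest rises and falls without overlap at a mean of 50 or more counts, the 10 most abundant miRNAs, the called arm ratios, 8 shared seeds and 8 clusters by p, 3 miRNAs per list, and hosts; others were named after their values were seen. Fits were tested on simulated data. Whether replicate numbers pair the libraries is not stated, and the fits treated them as unpaired. More counts give smaller errors: the median SE was 0.26 under 10 CPM and 0.11 at 1000 CPM or more. Alternatives were other scalings, filters, tools and leaving out each library.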

Additional observations from a re-analysis of the deposited data

Results flagged for a closer look

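In 8 groups of 4 libraries 1 library lay far from the other 3 (its gap to the nearest, over the group's range, was above Dixon's 95% critical value), of 238 groups examined; chance flags about 1 in 20 groups. With vehicle, these were let-7i-5p at 37439 CPM (the others 40805 to 41150), miR-146a-5p at 641 CPM, miR-222-5p at 6.22 CPM and miR-4521 at 68.8 CPM. With cyclosporine A, they were miR-24-2-5p at 57.5 CPM, miR-320d at 8.58 CPM, miR-335-3p at 11.2 CPM and miR-99b-5p at 1857 CPM. The calls for miR-222-5p, miR-335-3p and miR-4521 were made with each library left out.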

How the results depend on the processing

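With library totals only, 30 miRNAs were called (14 higher, 16 lower) in place of 53 (24 higher, 29 lower). Of the 53 calls, 29 were also made with library totals only. Other scalings, filters, DESeq2 and limma voom gave 46 to 56, and 53 calls with no filter. No call of the 53 changed sign under any alternative run. Leaving out 1 library gave 28 to 52 miRNA calls (13 to 23 higher, 15 to 32 lower), 1 to 8 arm ratios in place of 6, 27 to 43 seeds in place of 43 and 26 to 36 clusters in place of 39. With both arms at a mean of 50 or more counts, 2 arm ratios were called. Deviations from group means correlated across treatments by 0.045, 0.535, 0.01 and 0.221 between same-numbered miRNA libraries. Between libraries with different numbers they correlated by -0.584 to 0.283. The labels do not say whether same-numbered libraries were paired, and these values cannot tell. With a replicate block, 101 miRNAs (52 higher, 49 lower), 10 arm ratios, 69 seeds and 64 clusters were called. The authors' deposited table has 58 calls, of which 51 (87.9% of theirs, 96.2% of the edgeR calls) were shared. For the 135 single results, 155 values under alternatives were no longer called, 50 were newly called and 47 changed sign while called in neither fit. Of the 199 miRNAs below 10 CPM, where the median SE was 0.256, 4 rose and 8 fell, against 5.08% higher and 6.14% lower over all 472. The part of depth in this was not tested.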

Other observations

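miRNAs with a number of 1000 or more in their name, mostly rare and annotated late, made up 111 of the 472; 2 of them rose and 9 fell, against 22 and 20 of the 361 with lower numbers. Of the 81 miRNAs with no arm in the name 2 rose and 9 fell, against 5.08% higher and 6.14% lower over all 472. These 2 groups share calls, among them miR-7974, miR-3917 and miR-4461, so the counts are not separate observations. miR-15b-3p, of the MIR15B hairpin in SMC4, had a change of -1.67 ± 0.56 and was not called (edgeR adjusted p = 0.0644): its vehicle libraries were at 2.06, 10.9, 10.5 and 1.12 CPM and its cyclosporine A libraries at 3.51, 0.894, 1.84 and 0.938 CPM, so vehicle replicates 2 and 3 stood apart. Across the 417 miRNAs with a sequence, the log2 fold change had a Pearson r of -0.10 with GC percent and -0.04 with length. The rarer arm of a hairpin was called about as often (9 higher and 7 lower of 128) as the more abundant arm (10 higher and 9 lower of 121), with a median SE of 0.19 against 0.13.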
